A study of Mus musculus with 4 samples.

Results

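The 33 genes described here are 15 hypoxia-inducible genes (Hilpda, Egln3, Egln1, Vegfa, Ddit4, Bnip3, Bnip3l, Ero1l, P4ha1, P4ha2, Ankrd37, Ndrg1, Adm, Higd1a and Kdm3a) and 18 genes of glucose uptake, glycolysis and its branch points (Slc2a1, Slc16a3, Hk1, Hk2, Gpi1, Pfkl, Pfkp, Pfkfb3, Aldoa, Tpi1, Gapdh, Pgk1, Pgam1, Eno1, Pkm, Ldha, Pdk1 and Mif). Mif is a cytokine gene that was placed with the 18, so the sums and counts of the glucose genes below include it. The members were taken by symbol, and all 33 were present among the 32285 genes of the CD45 sort and the 31053 genes of the T cell sort. The immune cells came from B16-F10 melanoma tumors of wild-type C57BL/6 mice, whose tumor cells, all from 1 clone, made the green fluorescent protein ZsGreen (ZsG) once doxycycline was given. The mice received doxycycline in the drinking water for 4 days, and the tumors were taken on day 8 after subcutaneous inoculation. CD45+ cells, or in a separate experiment CD45+TCR+ cells, were sorted into ZsG-negative and ZsG-positive cells and profiled by droplet-based 3′-end single-cell RNA sequencing, so that each of the 4 conditions was 1 library. Tumor line, doxycycline and time point were shared by all 4, and the number and age of the mice behind a library were not given in the sources used here.

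Cells sense oxygen through prolyl hydroxylases, which mark the alpha subunits of hypoxia-inducible factor (HIF) for degradation. When oxygen is low, HIF accumulates and binds short promoter elements with a core of A or G followed by CGTG. Its known targets lie in glucose uptake, glycolysis, lactate export, mitophagy, lipid storage and blood vessel growth, and in tumors the same genes can also be driven by growth signals, by Myc or by inflammatory activation.

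The promoters of several members hold that core, and 4 windows that hold it are shown as examples. Of the 33 genes, 31 matched RefSeq promoter windows (build GRCm38.p6, 250 bases before to 50 after a transcript start), in all 44 windows of 300 bases. On either strand, ACGTG stood in 25 of the 44 windows (56.8%) against 19.6% of all 32851 windows, GCGTG in 26 (59.1%) against 32.4%, and at least 1 of both in 35 (79.5%) against 43.8%. The palindrome CACGTG, which holds ACGTG on both strands, was in 3 windows, against 7.15% of all. By group, 14 of 17 windows of the hypoxia genes and 21 of 27 windows of the glucose genes held either motif. Capitals mark ACGTG or GCGTG on either strand, and each sequence is given 5′ to 3′ in the direction of its gene. Hilpda is at chr6:29272376-29272675 (plus strand), Bnip3 at chr7:138909457-138909756 (minus strand), Ankrd37 at chr8:45999801-46000100 (minus strand) and Ldha at chr7:46845554-46845853 (plus strand). Other windows of these genes held fewer matches: a second window of Hilpda had 1 GCGTG and a second window of Ldha 2, both with 0 ACGTG. Vegfa, not shown, had a window with neither motif and another with 1 of each. A match describes the letters of the window only.
Hilpda: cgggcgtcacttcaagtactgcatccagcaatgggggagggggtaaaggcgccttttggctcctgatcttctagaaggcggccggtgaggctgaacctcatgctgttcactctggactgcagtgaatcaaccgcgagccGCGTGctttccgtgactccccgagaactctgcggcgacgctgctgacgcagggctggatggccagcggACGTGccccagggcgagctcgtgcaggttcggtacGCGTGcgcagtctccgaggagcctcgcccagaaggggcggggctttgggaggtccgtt
Bnip3: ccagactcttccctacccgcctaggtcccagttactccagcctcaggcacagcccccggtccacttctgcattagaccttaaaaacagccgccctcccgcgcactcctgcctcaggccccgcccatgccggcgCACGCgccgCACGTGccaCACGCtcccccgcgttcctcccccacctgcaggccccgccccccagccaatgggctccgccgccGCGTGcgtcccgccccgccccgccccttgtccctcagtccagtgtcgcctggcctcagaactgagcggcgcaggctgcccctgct
Ankrd37: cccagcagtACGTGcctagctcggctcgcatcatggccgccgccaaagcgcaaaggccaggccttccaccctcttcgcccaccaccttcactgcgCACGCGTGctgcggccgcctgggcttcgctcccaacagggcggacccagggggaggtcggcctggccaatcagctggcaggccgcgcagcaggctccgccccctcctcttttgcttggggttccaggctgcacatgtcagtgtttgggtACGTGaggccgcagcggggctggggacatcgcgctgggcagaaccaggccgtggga
Ldha: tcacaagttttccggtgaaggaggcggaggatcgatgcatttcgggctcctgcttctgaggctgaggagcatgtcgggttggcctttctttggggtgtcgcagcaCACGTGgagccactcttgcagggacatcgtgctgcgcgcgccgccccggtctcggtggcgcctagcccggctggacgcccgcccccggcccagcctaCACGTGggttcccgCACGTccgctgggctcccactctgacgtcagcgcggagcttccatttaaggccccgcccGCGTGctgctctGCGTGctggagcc

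After filters on genes detected and mitochondrial UMIs, 4698 ZsG-negative and 4124 ZsG-positive cells of the CD45 sort and 948 and 1879 cells of the T cell sort were kept, at median depths of 5284, 8520.5, 5998 and 7322 UMIs per barcode before filtering. The CD3 limit that the study set for the T cell sort was applied here to T cell-like cells only, so the cells of other classes described from that sort are ones it is meant to remove. Classes were set from UMIs of marker genes and are called "-like". Levels of the defining markers follow from the limits that set the classes, so they describe the classes and do not test the names. Ncr1 was at 441 UMIs per 1000000 UMIs of the class (CPM) in ZsG-negative NK-like cells against 21.6 in T cell-like cells. Cd3e was at 2.37 against 315. C1qa was at 2932 CPM in C1q macrophage-like cells and Siglech at 1915 CPM in ZsG-negative plasmacytoid DC-like cells. Ly6c2 did not separate monocytes from plasmacytoid DC-like cells (1302 and 3795 CPM). A class named monocyte/macrophage-like of low to mid C1q takes in 398 cells with a C1q marker sum between both limits and 137 cells at or under the lower limit with few inflammatory monocyte UMIs. Of the kept cells, 405, 499, 83 and 225 fell in no class. Within a sort, 6 and 1 barcodes occurred in both libraries, and 9 occurred in both sorts. Each library stands alone, so no test between conditions was possible, and every interval below is a 95% interval that covers counting error only.

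Levels were compared over the 12 whole classes per library of the CD45 sort with at least 50 cells, and highest and lowest below refer to these 12, in which the T cell subsets are not split. Among them the summed level of the hypoxia genes was highest in ZsG-positive monocytes and macrophages and lowest in ZsG-negative monocytes, DCs and plasmacytoid DCs. Summed over the 15 genes, the level was 1696 CPM (1660 to 1733) in monocyte/macrophage-like cells of low to mid C1q, 1122 (1097 to 1147) in ZsG-positive inflammatory monocyte-like cells and 1019 (1006 to 1031) in C1q macrophage-like cells. ZsG-negative inflammatory monocyte-like cells had 489 (450 to 531), non-classical monocyte-like cells 544 (491 to 601), DC-like cells 452 and plasmacytoid DC-like cells 483. ZsG-negative NK-like cells had 814 CPM and ZsG-negative T cell-like cells 768. Foxp3-positive T cells within the latter, a subset of 52 cells, had 1108 (1039 to 1181), and the 14 ZsG-positive ones 1415 (1259 to 1585), against 1019 to 1696 in ZsG-positive monocytes and macrophages of at least 50 cells. The sum over the 18 glucose genes had a different order. It was 10990 CPM in the cells of low to mid C1q, 9916 in C1q macrophage-like cells, 9804 in ZsG-positive T cell-like cells and 9083 in ZsG-positive inflammatory monocyte-like cells (10265 and 13549 in the 52 and 14 Foxp3-positive T cells), but 4653 in ZsG-negative NK-like cells and 3109 in ZsG-negative inflammatory monocyte-like cells. By these sums, in which deep cells weigh more, NK-like cells sat near the T cells for hypoxia genes and well below them for glucose genes. With each cell thinned at random to 2000 UMIs, the gap was smaller. ZsG-negative NK-like and T cell-like cells then had medians of 6 and 7 glucose UMIs (means 7.83 and 10.6). ZsG-positive T cell-like and inflammatory monocyte-like cells had medians of 12 and 15 (means 14.4 and 17.8), the reverse of their order by sum.

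**Figure D1:**
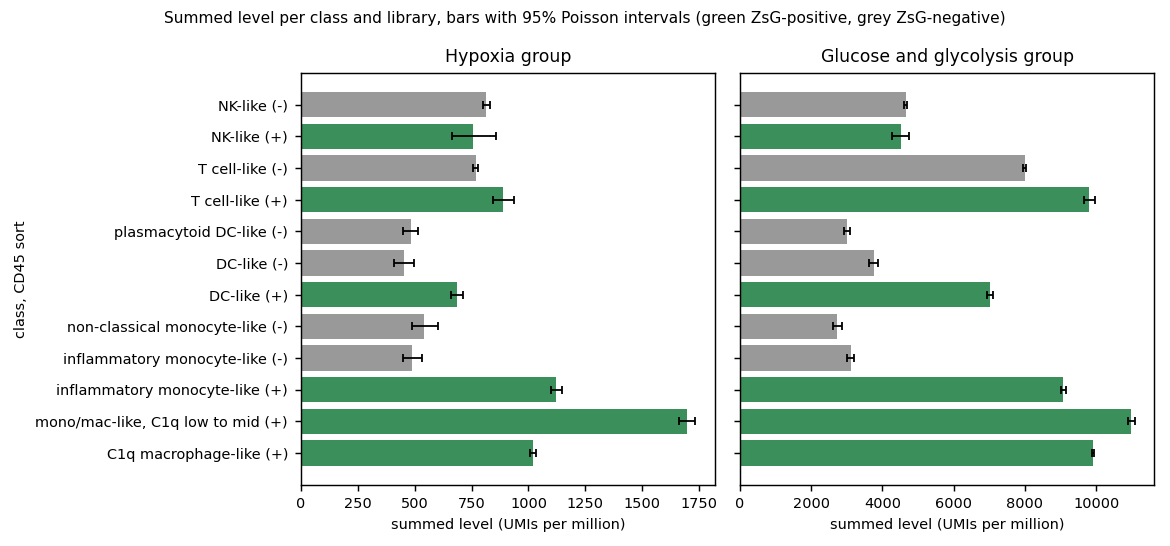
Summed level in CPM (x axis) of the 15 hypoxia genes (left) and the 18 glucose genes (right) in the 12 whole classes per library of the CD45 sort with at least 50 cells, T cell subsets not split (y axis). Bars are green for ZsG-positive and grey for ZsG-negative libraries and error bars are 95% Poisson intervals; the cells of low to mid C1q are highest in both panels, at 1696 and 10990 CPM.

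Over these 12 groups, 25 of the 33 members had their highest level in the cells of low to mid C1q, and for 15 of the 25 the counting interval lay above that of the second group. The share of all genes that were highest there is not given here, so the count describes the members only. Against ZsG-positive inflammatory monocyte-like cells, 60.2% of all genes compared had a ratio above 1 in this class. The other 8 split by lineage. Vegfa and Ddit4 were highest in NK-like cells, Hk1, Ldha and Mif in ZsG-positive T cell-like cells, Pfkp in ZsG-positive DC-like cells, Bnip3l in ZsG-negative non-classical monocyte-like cells and Pdk1 in C1q macrophage-like cells. Of these 8, Ldha, Mif, Pfkp and Bnip3l stood apart from their second group by their intervals, while Vegfa, Ddit4, Hk1 and Pdk1 did not.

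**Figure D2:**
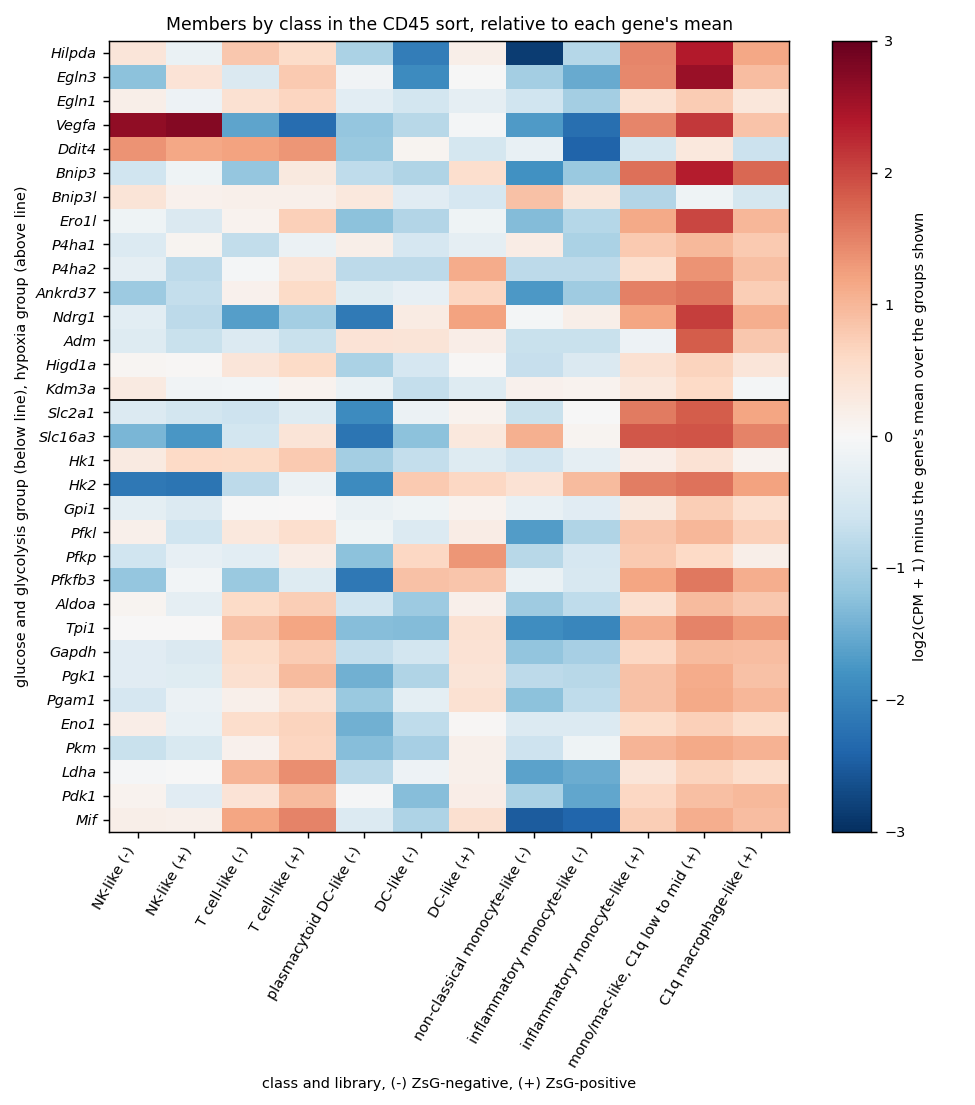
Level of each member (rows, hypoxia genes above the line and glucose genes below) in the 12 groups of the CD45 sort (columns), as log2(CPM + 1) minus the gene's mean over the groups. Red is above and blue below that mean; the columns of the ZsG-negative monocytes are blue for most genes, and Vegfa is red in the NK-like columns, at 107 and 115 CPM.

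Among the oxygen sensors, Egln3, a prolyl hydroxylase that is itself a HIF target, ran from 1.08 CPM in ZsG-negative DC-like cells to 45.8 in the cells of low to mid C1q, with 20.1 in ZsG-positive and 1.71 in ZsG-negative inflammatory monocyte-like cells. Egln1, the main prolyl hydroxylase, had a narrower range, from 33.4 CPM in ZsG-negative inflammatory monocyte-like cells to 117 in the cells of low to mid C1q, and 108 in ZsG-positive T cell-like cells. Kdm3a, a histone demethylase, was flatter still, between 9.76 and 25.8 CPM.

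Hilpda, which blocks lipolysis at lipid droplets, had a wide range as well. Its level was 357 CPM in the cells of low to mid C1q, 189 in ZsG-positive inflammatory monocyte-like cells, 152 in C1q macrophage-like cells, 119 and 100 in ZsG-negative and ZsG-positive T cell-like cells and 87.5 in ZsG-negative NK-like cells. It was 36.8 CPM in ZsG-negative inflammatory monocyte-like cells, 34.5 in plasmacytoid DC-like cells, 15.2 in ZsG-negative DC-like cells and 8.49 in non-classical monocyte-like cells. Within the cells of low to mid C1q it was 541 CPM in the 137 cells with few C1q and few inflammatory monocyte UMIs and 309 in the 398 others. Higd1a, a mitochondrial respiratory chain factor, spanned 93.5 to 286 CPM and Ankrd37, an ankyrin repeat gene, 5.66 to 65.5.

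The angiogenic factor Vegfa had a pattern of its own. It was at 107 CPM (1448 UMIs) in ZsG-negative and 115 CPM in ZsG-positive NK-like cells, 73.8 in the cells of low to mid C1q, 46.3 in ZsG-positive inflammatory monocyte-like cells and 30.0 in C1q macrophage-like cells. In ZsG-negative T cell-like cells it was 4.71, in ZsG-positive ones 2.48 and in ZsG-negative inflammatory monocyte-like cells 2.57. The NK-like cells of the T cell sort had 161 and 158 CPM, in 18 and 33 cells. Adm, the gene of the vasodilator adrenomedullin, was near the detection limit everywhere, with at most 4.64 CPM.

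For the mitochondrial members, Bnip3, a mitophagy receptor, was at 143 CPM in the cells of low to mid C1q, 92.2 in C1q macrophage-like cells and 87.9 in ZsG-positive inflammatory monocyte-like cells, against 7.08 to 39.0 in the other 9 groups. Its paralog Bnip3l did not share this order. Bnip3l was highest in ZsG-negative non-classical monocyte-like cells at 217 CPM, was 151 in ZsG-negative and 63.8 in ZsG-positive inflammatory monocyte-like cells, and had its lowest level in the latter.

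Of the protein folding and matrix members, Ero1l, an oxidase of the endoplasmic reticulum, was at 206 CPM in the cells of low to mid C1q and between 19.8 and 112 elsewhere. P4ha1, a collagen prolyl hydroxylase subunit, ran from 26.5 to 103 CPM, and its relative P4ha2 reached 3.43. Ndrg1, a stress-induced gene, was at 140 CPM in the cells of low to mid C1q, 77.4 in ZsG-positive DC-like cells and 6.68 in plasmacytoid DC-like cells. Ddit4, an inhibitor of mTORC1, was higher in both lymphocyte classes, at 31.0 to 35.3 CPM in the NK-like and T cell-like groups and 8.14 in C1q macrophage-like cells, and at 93.3 in the 52 Foxp3-positive T cells of the ZsG-negative library.

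At the entry and exit of glycolysis, the glucose transporter Slc2a1 was at 164 CPM in the cells of low to mid C1q and 135 in ZsG-positive inflammatory monocyte-like cells, against 29.5 to 34.8 in the NK-like and T cell-like groups. The lactate exporter Slc16a3 was 205 and 200 CPM in these myeloid groups, 155 in C1q macrophage-like cells and 115 in non-classical monocyte-like cells, but 11.1 in plasmacytoid DC-like cells. Of the hexokinases, which start glycolysis, Hk1 was highest in ZsG-positive T cell-like cells at 63.3 CPM and Hk2 in the cells of low to mid C1q at 144. Hk2 was as low as 9.64 and 9.29 CPM in the NK-like groups, and at 89.0 in ZsG-negative inflammatory monocyte-like cells it was one of the few members that these cells carried at a level near that of the ZsG-positive ones (135).

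Of the phosphofructokinase genes, Pfkp was highest in ZsG-positive DC-like cells at 485 CPM, with 298 in ZsG-negative ones, 335 in ZsG-positive inflammatory monocyte-like cells and 221 in C1q macrophage-like cells. Pfkl ran from 14.2 CPM in non-classical monocyte-like cells to 96.2 in the cells of low to mid C1q, and Pfkfb3, which makes an activator of phosphofructokinase, from 4.45 in plasmacytoid DC-like cells to 71.0. Gpi1 (207 to 462 CPM), Aldoa (215 to 879), Tpi1 (70.2 to 783), Gapdh (670 to 2955), Pgk1 (121 to 710), Pgam1 (130 to 670), Eno1 (103 to 460) and Pkm (239 to 1281), the enzymes that carry sugar phosphates to pyruvate, each had their maximum in the cells of low to mid C1q. Gapdh, Aldoa and Eno1 have related genes or pseudogenes, so that reads could be split between copies.

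At the branch points, Ldha, which turns pyruvate to lactate, was at 1468 CPM in ZsG-positive and 1149 in ZsG-negative T cell-like cells, above 890 in the cells of low to mid C1q and 814 in C1q macrophage-like cells. It was 546 CPM in ZsG-negative NK-like cells and 200 in ZsG-negative inflammatory monocyte-like cells. Mif, a cytokine gene induced by hypoxia, had a similar order, with 1126 and 907 CPM in the T cell-like groups, 856 in the cells of low to mid C1q, 447 in ZsG-negative NK-like cells and 76.1 in ZsG-negative inflammatory monocyte-like cells. Pdk1, a mitochondrial kinase that inhibits pyruvate dehydrogenase, was between 3.42 and 24.3 CPM.

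Whether ZsG-positive cells differ from ZsG-negative cells of the same class was asked class by class, with a gene taken into the comparison when at least 10 UMIs were expected in the side with fewer reads, and counted when its ratio reached 2-fold. Inflammatory monocyte-like cells (850 ZsG-positive and 137 ZsG-negative cells of the CD45 sort) had the most members past 2-fold of the classes compared. Non-classical monocyte-like cells were not compared, since 16 were ZsG-positive; their hypoxia sums were 1486 (1266 to 1734) against 544 CPM and their glucose sums 8909 against 2734. Of 30 members that entered, 23 were at least 2-fold higher and 1 was at least 2-fold lower in ZsG-positive cells, against 8.47% of all 6921 genes higher and 6.42% lower. The median log2 ratio of the members was 1.68, and that of all genes -0.02. The hypoxia sum was 1122 against 489 CPM (log2 ratio 1.20, 1.07 to 1.32) and the glucose sum 9083 against 3109 (1.55).

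Among the hypoxia genes in these monocytes, Vegfa was at 46.3 against 2.57 CPM (log2 ratio 3.95, 2.61 to 6.46), resting on 3 UMIs in the ZsG-negative cells. Hilpda was at 189 against 36.8 CPM (2.34, 1.92 to 2.83), Bnip3 at 87.9 against 12.0 (2.83, 2.12 to 3.76) and Ero1l at 112 against 27.4 (2.01, 1.52 to 2.59). Egln3 (3.24), Ankrd37 (2.64), P4ha1 (1.75), Egln1 (1.49) and Ndrg1 (1.03) were higher as well. The 1 member that was lower was Bnip3l, at 63.8 against 151 CPM (-1.24, upper bound -0.98).

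Every glucose gene had a log2 ratio above 0 in the same cells, against 48.7% of all genes. Of the 18, 14 were at least 2-fold higher, against 8.47% of all genes. Tpi1 was at 596 against 70.2 CPM (3.08, 2.77 to 3.42), Mif at 661 against 76.1 (3.11, 2.82 to 3.44), Ldha at 719 against 200 (1.84, 1.65 to 2.04) and Gapdh at 2350 against 767 (1.61, 1.52 to 1.71). Slc16a3 (1.79), Slc2a1 (1.56) and Pdk1 (2.29) were past 2-fold too, while Eno1 (0.96) was just under it. Adm, Ddit4 and P4ha2 had too few UMIs to enter.

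The pathway around the members was read from lists of other genes. Of 9 HIF regulators, 5 entered and none reached 2-fold: Hif1a itself was at 168 against 161 CPM, and Arnt, its partner, at 21.7 against 25.7. Of 34 other hypoxia-inducible genes, 20 entered, 9 were higher and 1 lower. Among them Nos2, the inducible nitric oxide synthase, had 172 UMIs against 0, the aldolase gene Aldoc 132 against 0, Fam162a a log2 ratio of 2.61 and the heme oxygenase Hmox1 2.13. Of 27 other glucose genes, 13 entered, with Hk3 higher (2.33) and Ldhb lower (-1.90).

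Other features moved with these ratios, and their part in them was not tested. The ZsG-negative inflammatory monocyte-like cells had more UMIs of the 5 non-classical monocyte markers (186 against 40.7 CPM, Cx3cr1 97.5 against 8.52), and the ZsG-positive cells more of the C1q macrophage markers (197 against 77.9), of the 9 melanocyte markers (10.1 against 0.856) and of the 10 cell cycle genes (103 against 41.9). Genes induced by tissue digestion were alike, at 15524 and 14761 CPM. With a gate that left out Plac8 and allowed at most 1 non-classical UMI (598 and 61 cells), 21 of 28 members were higher and 1 lower. Without cells that carried a melanocyte UMI, 22 were higher and 1 lower. The shares of all genes with these changed sets of cells are not given here.

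**Figure D3:**
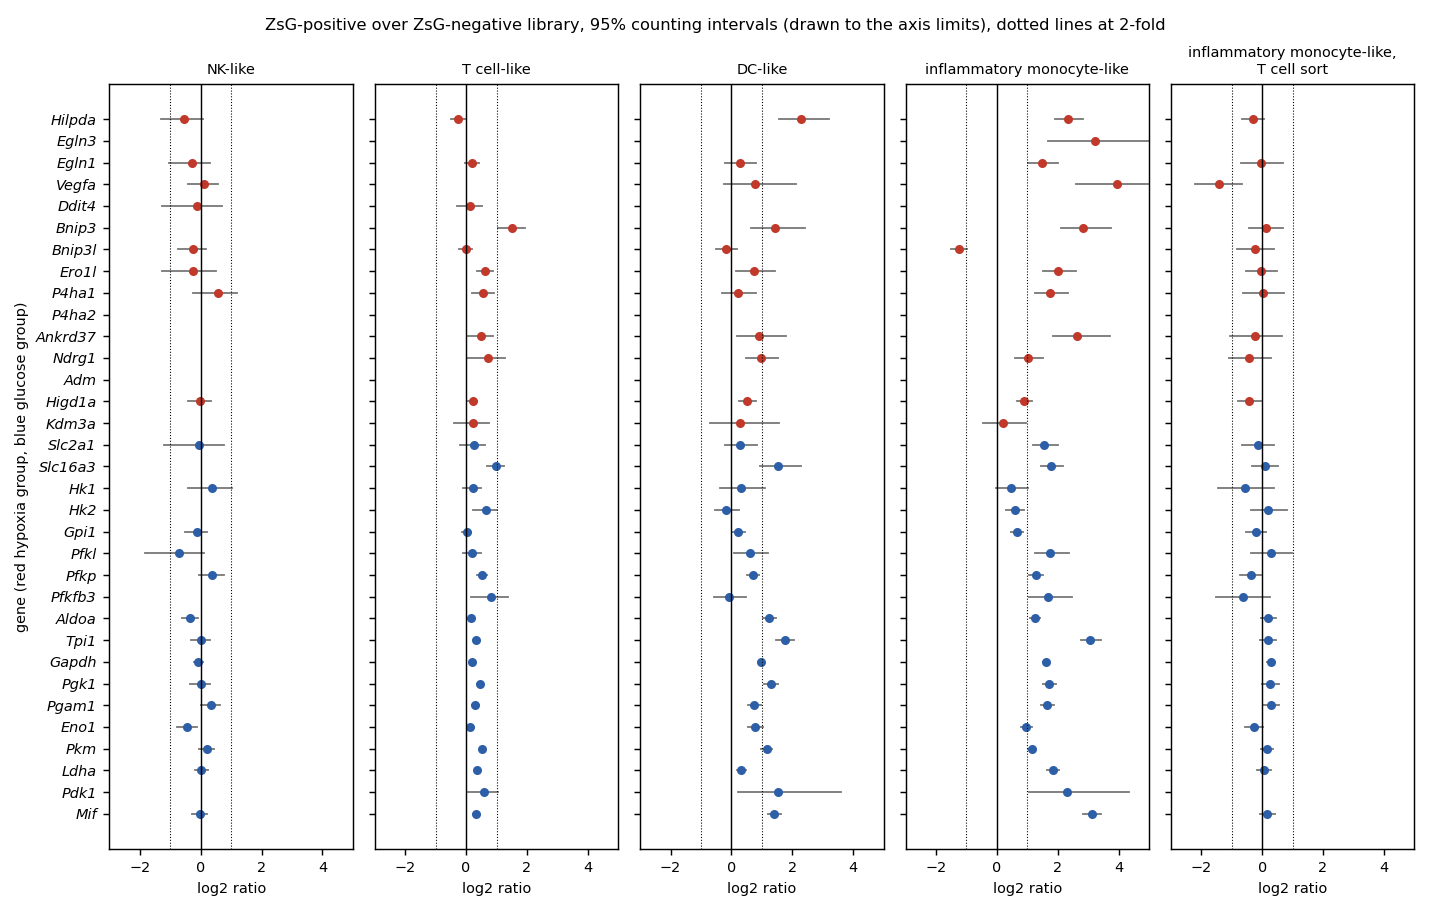
Log2 ratio of ZsG-positive over ZsG-negative library (x axis) for each member that entered the comparison (y axis, hypoxia genes red, glucose genes blue), in 4 classes of the CD45 sort and in the inflammatory monocyte-like cells of the T cell sort. Lines are 95% counting intervals and dotted lines mark 2-fold; the monocytes of the CD45 sort are shifted to the right (median 1.68), and those of the T cell sort lie around 0 (median -0.04).

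By summed level, the monocytes that passed through the T cell sort did not show this difference. For all results of that sort, the direction rests on the assignment of barcode suffix 1 to ZsG-positive cells, which the name of the matrix states and the library names in the labels reverse. By this assignment 104 of 666 ZsG-positive and 31 of 630 ZsG-negative T cell-like cells were Foxp3-positive, and in the CD45 sort, where the names do not conflict, 14 of 139 and 52 of 1523 were. Plasmacytoid DC-like cells differed in direction between the sorts. They were 0.461% of ZsG-positive and 4.36% of ZsG-negative kept cells in the CD45 sort, and 32.1% and 12.6% in the T cell sort. Whether these shares bear on the assignment was not tested. The 70 ZsG-positive and 31 ZsG-negative inflammatory monocyte-like cells had hypoxia sums of 1147 and 1431 CPM (log2 ratio -0.32, -0.48 to -0.16) and glucose sums of 8413 and 7669 (0.13). Of 27 members, none was at least 2-fold higher and 1 lower, against 1.95% and 2.18% of all genes. That member was Vegfa, at 37.0 against 99.7 CPM (log2 ratio -1.42, -2.22 to -0.66), but on 26 and 35 UMIs. After thinning each cell to 2000 UMIs its log2 ratio was 0.12, in the opposite direction. Hilpda was at 236 and 291 CPM and Bnip3 at 124 and 114. By these sums, the ZsG-negative monocytes of this sort were near the ZsG-positive cells of the CD45 sort. Levels of both sorts come from separate matrices and were not tested against each other. With each cell thinned to 2000 UMIs, ZsG-negative and ZsG-positive monocytes of this sort had medians of 7 and 12 glucose UMIs (means 15.5 and 17.3). Those of the CD45 sort had medians of 5 and 15 (means 5.71 and 17.8). The make-up of the class differed too. Non-classical monocyte markers were at 51.2 CPM in ZsG-positive and 59.8 in ZsG-negative monocytes of this sort, and C1q markers at 72.6 and 74.1. Both differed more between the libraries of the CD45 sort, and the part of this was not tested. The study states that the CD45 gate took bright cells, so the ZsG gates of both sorts need not be alike.

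DC-like cells differed in the same direction as the monocytes of the CD45 sort, with smaller ratios. In 294 ZsG-positive and 88 ZsG-negative cells, 9 of 29 members were at least 2-fold higher and none lower, against 5.7% and 1.66% of all 6630 genes, at a median log2 ratio of 0.75. Hilpda was at 75.7 against 15.2 CPM (2.27, 1.55 to 3.21), Tpi1 at 382 against 113 (1.75, 1.47 to 2.06) and Slc16a3 at 67.4 against 22.8 (1.53, 0.92 to 2.28). Pdk1 (1.52), Bnip3 (1.42), Mif (1.40), Pgk1 (1.30), Aldoa (1.24) and Pkm (1.16) followed. Bnip3l and Hk2 were not higher, at 82.9 against 93.2 and 70.7 against 79.1 CPM.

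In the lists beside the members, none of 5 HIF regulators reached 2-fold in DC-like cells, 5 of 16 other hypoxia-inducible genes were higher, led by Hmox1 (74.3 against 4.34 CPM) and Plin2, a lipid droplet coat protein (150 against 61.8), and Hk3 and Eno3 were the higher 2 of 13 other glucose genes. The cell cycle genes were at 824 against 295 CPM and the C1q markers at 148 against 1.08 in these cells, and the DC subsets in the class were not equal, with Cd209a at 283 against 706 CPM and Xcr1 at 125 against 53.1. The part of these features was not tested.

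In lymphocytes of the CD45 sort the members differed little with ZsG. The study states that the gate of this sort took bright cells, and that most lymphocytes with ZsG were therefore sorted as ZsG-negative. The ZsG-negative lymphocytes compared here are thus a mixture, which limits what these ratios can show. Of 29 members in T cell-like cells (139 ZsG-positive, 1523 ZsG-negative), Bnip3 alone was at least 2-fold higher, at 33.5 against 11.7 CPM (log2 ratio 1.52, 1.06 to 1.95), and none was lower, against 0.751% and 1.22% of all 8118 genes. All 18 glucose genes had a ratio above 1, against 57.7% of all genes. The glucose sum was 9804 against 7998 CPM (log2 ratio 0.29, 0.27 to 0.32). Slc16a3 came nearest to 2-fold among them, at 71.4 against 36.5 CPM. Hilpda was at 100 against 119. The make-up of the class differed, with 14 of 139 ZsG-positive and 52 of 1523 ZsG-negative cells Foxp3-positive. Glucose sums were 13549 and 10265 CPM in these Foxp3-positive cells, and 9892 and 9008 in CD8 T cells (71 and 791). The cell cycle genes were at 2697 against 2142 CPM in T cell-like cells. The part of these features was not tested. In NK-like cells (77 and 2229) none of 22 members reached 2-fold in either direction, against 0.642% higher and 1.44% lower of 3892 genes, and the hypoxia sums were 755 and 814 CPM (-0.11, -0.30 to 0.08). Genes induced by tissue digestion were at 4875 against 3625 CPM in NK-like cells (log2 ratio 0.43, 0.35 to 0.50). In T cell-like cells they were at 4983 against 4292, and their part was not tested. C1q markers, which lymphocytes should lack, were at 232 against 3.49 CPM in NK-like and 84.4 against 3.16 in T cell-like cells, higher in the ZsG-positive library in both. Of the other hypoxia-inducible genes, 2 of 18 were higher in T cell-like cells, Ier3 (log2 ratio 1.21) and Plin2 (1.02), and 1 of 11 was lower in NK-like cells, Ccng2 (15.5 against 38.8 CPM).

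In the T cell sort, CD8 T cells (393 ZsG-positive, 370 ZsG-negative) had a glucose sum of 7440 against 5268 CPM (log2 ratio 0.50, 0.47 to 0.53) and a hypoxia sum of 721 against 602 (0.26, 0.17 to 0.35). Ankrd37 (24.0 against 11.7 CPM) and Ndrg1 (7.58 against 3.68) were the 2 of 29 members at least 2-fold higher, and none was lower, against 2.63% and 2.03% of all genes. Ldha was at 983 against 766 CPM, Gapdh at 2051 against 1396 and Pkm at 539 against 358, while Pdk1 was at 13.1 against 24.4. The cell cycle genes were at 1201 against 660 CPM in these cells, and their part was not tested. Of the other hypoxia-inducible genes 2 of 19 were higher, Hmox1 (log2 ratio 1.69) and the transferrin receptor Tfrc (1.16), and 1 lower, Maff (-1.68), and none of 7 HIF regulators reached 2-fold. Cells with at least 5 UMIs of exhaustion markers (156 of 393 ZsG-positive, 71 of 370 ZsG-negative) had nearly equal glucose sums of 9037 and 8923 CPM (0.02, -0.02 to 0.05), and cells with at most 1 such UMI had 4093 against 2998 (0.45, 0.39 to 0.51). None of 27 and of 23 members reached 2-fold in these subsets, where 1.97% of all genes were higher and 1.31% lower, and 1.72% and 1.12%. The cell cycle genes were at 421 against 84.8 CPM in the cells with few exhaustion UMIs, and the split itself depends on depth.

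Regulatory T cells, taken as Foxp3-positive T cells (104 ZsG-positive, 31 ZsG-negative), carried the highest hypoxia sums among the T cell subsets of that sort, with 1339 against 1068 CPM (0.33, 0.16 to 0.50). Bnip3 was at 74.4 against 15 CPM (2.18, 1.03 to 3.97, 5 UMIs in the ZsG-negative cells), Ero1l at 87.5 against 39.0 (1.12) and Slc16a3 at 120 against 54.0 (1.12). These were the 3 of 22 members at least 2-fold higher, none was lower, and of all genes 2.68% and 1.06% were. Hilpda was high in both, at 267 and 276 CPM, against 73.0 and 67.6 in CD8 T cells, and Ddit4 was at 139 and 96.0 against 16.2 and 18.4. In CD4 T cells without Foxp3 (36 and 60) none of 15 members was higher and Hilpda was lower, at 51.1 against 140 CPM on 8 and 48 UMIs (-1.38, -2.75 to -0.36), with 1.3% and 2.83% of all genes past these limits.

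Of the other classes of the T cell sort, plasmacytoid DC-like and C1q macrophage-like cells were also compared. In plasmacytoid DC-like cells (604 and 119) none of 24 members reached 2-fold, against 1.15% of genes higher and 0.481% lower, with hypoxia sums of 469 and 474 CPM and glucose sums of 3358 and 2631 (0.35, 0.29 to 0.41). In C1q macrophage-like cells (111 and 32) Vegfa alone of 29 members was higher, at 52.6 against 21.5 CPM (1.25, 0.50 to 2.18), against 2.82% higher and 0.688% lower, and the hypoxia sums were 1238 and 1134 CPM. The cells of low to mid C1q were too few to compare gene by gene (41 and 17), and their sums were lower in ZsG-positive cells, at 1593 (1472 to 1721) against 2264 CPM (2027 to 2522) for hypoxia and 8658 against 11013 for glucose genes. DC-like cells (118 and 15) had hypoxia sums of 498 and 439 CPM and NK-like cells (33 and 18) of 741 and 844.

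The ZsG-positive CD45 library allowed the myeloid classes to be compared within 1 library. C1q macrophage-like and inflammatory monocyte-like cells were close: of 33 members only Adm reached 2-fold, at 46 and 3 UMIs (1.79 against 0.441 CPM), and none was lower, against 8.08% higher and 2.12% lower of 10261 genes. The hypoxia sum was slightly lower (log2 ratio -0.14, -0.18 to -0.10) and the glucose sum slightly higher (0.13, 0.11 to 0.14) in the macrophages. Ankrd37 (35.5 against 61.4 CPM), Vegfa (30.0 against 46.3) and Pfkp (221 against 335) were lower in them by less than 2-fold. The cells of low to mid C1q, in contrast, had ratios above 1 over the monocytes for 32 of 33 members, against 60.2% of all genes. Adm (3.20), P4ha2 (1.19) and Egln3 (1.18) reached 2-fold, Hilpda did not (0.92, 0.81 to 1.02), and none was lower, against 3.45% and 0.687% of 9611 genes. Melanocyte markers were at 22.4 CPM in the cells of low to mid C1q and 32.6 in C1q macrophage-like cells, against 10.1 in the monocytes. Cell cycle genes were at 226 and 470 against 103 CPM, and median depths were 8272 and 13153 against 7166 UMIs. The part of these features was not tested.

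Against DC-like cells of the same library, C1q macrophage-like cells had 7 of 31 members at least 2-fold higher and 1 lower, while 9.71% of all 9500 genes were higher and 6.03% lower. Higher were Bnip3 (92.2 against 39.0 CPM), Slc16a3 (155 against 67.4), Ero1l (102 against 46.1), Slc2a1 (105 against 49.5), P4ha1 (91.2 against 43.4), Egln3 (13.7 against 6.63) and Hilpda (152 against 75.7). Lower was Pfkp, at 221 against 485 CPM (log2 ratio -1.13, -1.21 to -1.06).

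NK-like and T cell-like cells of the ZsG-negative library had nearly the same hypoxia sum (814 and 768 CPM, log2 ratio 0.08, 0.05 to 0.12). Of 13 hypoxia genes compared, 2 were at least 2-fold higher and 2 lower in NK-like cells. Of 18 glucose genes, 0 were higher and 3 lower. NK-like cells had 22.7-fold more Vegfa, at 107 against 4.71 CPM (4.50, 4.21 to 4.83), and more Ndrg1, at 26.0 against 9.63 (1.43). T cell-like cells had more Hk2 (26.1 against 9.64 CPM), Ankrd37 (22.9 against 9.20), Ldha (1149 against 546), Egln3 (4.76 against 2.30) and Mif (907 against 447), and their glucose sum was 7998 against 4653. They also had more UMIs of the cell cycle genes (2142 against 824 CPM) and a greater median depth (7080 against 4620 UMIs). The part of these features was not tested. The 2 higher members were 6.45% of the 31 compared, against 9.57% of all 11359 genes, and the 5 lower ones 16.1%, against 9.89%. Among other hypoxia-inducible genes, NK-like cells had more Ppp1r3b (21.5 against 2.46 CPM), and among other glucose genes more Slc2a6 (16.3 against 1.15), while Eno3 was lower (7.20 against 55.2). Hif1a was at 175 and 148 CPM and Epas1, the gene of HIF-2 alpha, at 3.56 and 8.53.

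Single genes were also read at equal depth. After each cell was thinned to 2000 UMIs, a Hilpda UMI was found in 31.0% of the cells of low to mid C1q, 17.5% of C1q macrophage-like cells, 17.3% of ZsG-positive and 2.19% of ZsG-negative inflammatory monocyte-like cells, 14.4% of ZsG-negative T cell-like and 11.5% of ZsG-negative NK-like cells. The lowest share of the 12 groups was 1.15% in ZsG-negative non-classical monocyte-like cells, the 2.19% came next, and ZsG-negative plasmacytoid DC-like cells had 2.44%. A Vegfa UMI was found in 19.5% of ZsG-negative NK-like cells, above 13.1% of the cells of low to mid C1q and 1.12% of T cell-like cells. Bnip3 was found in 23.8%, 16.0% and 15.2% of the cells of low to mid C1q, the C1q macrophage-like and the ZsG-positive inflammatory monocyte-like cells, and in 0.73% of ZsG-negative ones. In Foxp3-positive T cells of the ZsG-positive T cell library, Hilpda was in 35.6%. At least 1 UMI of any hypoxia gene was in 79.0% of the cells of low to mid C1q and in 44.3% of ZsG-negative DC-like cells after thinning, and in 97.2% and 98.9% before it. After thinning this share was 76.0% in ZsG-negative NK-like, 73.9% in C1q macrophage-like and 72.8% in ZsG-positive inflammatory monocyte-like cells, unlike their order by sum. At least 3 such UMIs were in 22.0%, 29.1% and 28.8% of them, and in 43.5% of the cells of low to mid C1q.

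**Figure D4:**
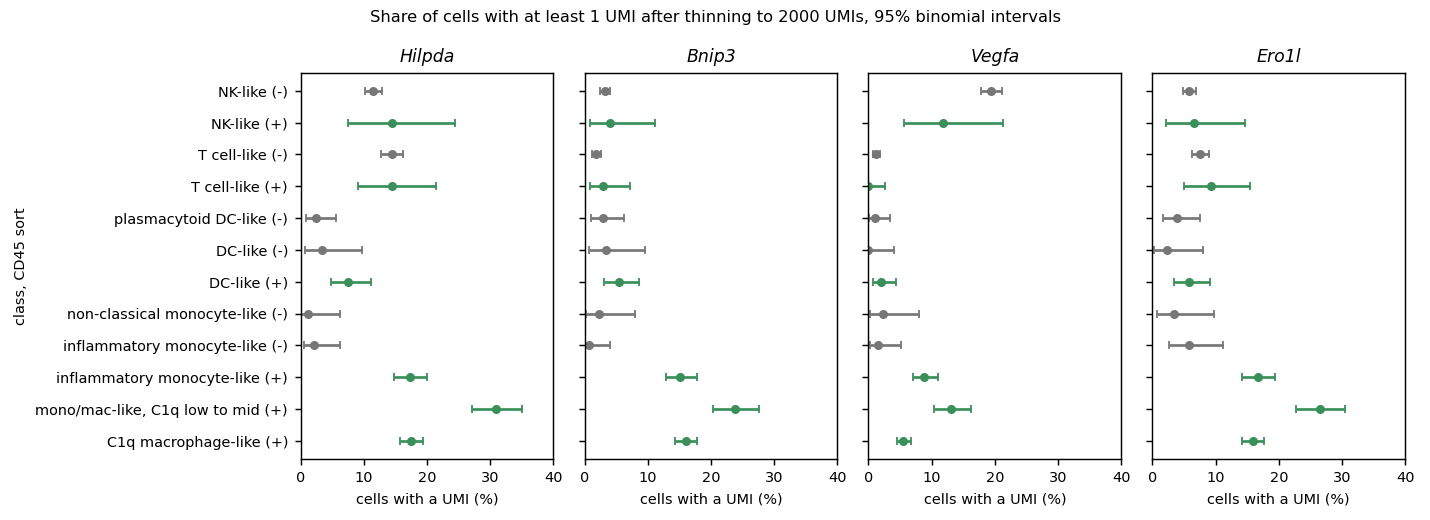
Share of cells with at least 1 UMI of Hilpda, Bnip3, Vegfa or Ero1l (x axes, percent) in the 12 groups of the CD45 sort (y axis) after thinning each cell to 2000 UMIs, with 95% binomial intervals; green is ZsG-positive, grey ZsG-negative. Hilpda, Bnip3 and Ero1l are highest in the cells of low to mid C1q (31.0%, 23.8% and 26.5%), and Vegfa in ZsG-negative NK-like cells (19.5%).

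Within single classes, cells with a Hilpda UMI had more of the other members, with larger ratios in the myeloid classes than in the lymphocytes; the difference between classes was not tested. Among thinned C1q macrophage-like cells, 296 with Hilpda were set beside 1399 without. All 27 members that entered had a log2 ratio above 0, at a median of 0.74 against -0.07 for all genes, and 9 were at least 2-fold higher, against 1.5% of all genes. The 9 were Vegfa (113 against 16.1 CPM, 2.81, 2.25 to 3.39), Ndrg1 (238 against 50.8, 2.23), Ero1l (338 against 76.1, 2.15), Slc2a1 (284 against 91.1, 1.64), Ankrd37 (1.51), Bnip3 (1.40), Bnip3l (1.39), Egln1 (1.24) and Hk2 (1.20). The glycolytic enzymes had smaller ratios, such as Pgk1 (0.74), Ldha (0.60) and Gapdh (0.53). Bnip3l, which went against the other members between the monocyte libraries, went with them here.

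The same held in the cells of low to mid C1q (165 with, 368 without), where 12 of 28 members were at least 2-fold higher against 4.19% of all genes, led by Vegfa (258 against 28.5 CPM, 3.15), Egln3 (137 against 16.3, 3.02) and Ndrg1 (431 against 59.8, 2.84). In ZsG-positive inflammatory monocyte-like cells (147 and 703) 10 of 26 were, against 1.97%, led by Ndrg1 (2.54), Vegfa (2.26) and Ero1l (2.12). In ZsG-negative NK-like cells (256 and 1969) 21 of 23 members had a log2 ratio above 0, at a median of 0.41 against -0.01 for all genes. Ndrg1 alone was 2-fold higher (1.30, against 0.132% of all genes). Kdm3a was at least 2-fold lower (-1.16, -2.94 to -0.01), and the share of all genes that were is not given here. Vegfa was at 141 and 116 CPM (0.29, -0.10 to 0.64). In ZsG-negative T cell-like cells (219 and 1303) none of 19 reached 2-fold, against 0.637%. In these cells 18 had a log2 ratio above 0, at a median of 0.35 against 0.06 for all genes. Before thinning, T cells with Hilpda had a median of 12494 UMIs and those without 6703. Cells of 1 library are not replicates, and cell cycle genes were lower in the macrophages with Hilpda (129 against 360 CPM) and higher in the T cells with it (1478 against 993). Genes induced by tissue digestion were at 13199 against 11954 CPM in the macrophages, 16380 against 13906 in the cells of low to mid C1q and 17714 against 15885 in the monocytes. They were at 3324 against 3710 in NK-like and 4343 against 3916 in T cell-like cells. C1q markers were lower in the macrophages with Hilpda (7516 against 9585). The part of these features was not tested.

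**Figure D5:**
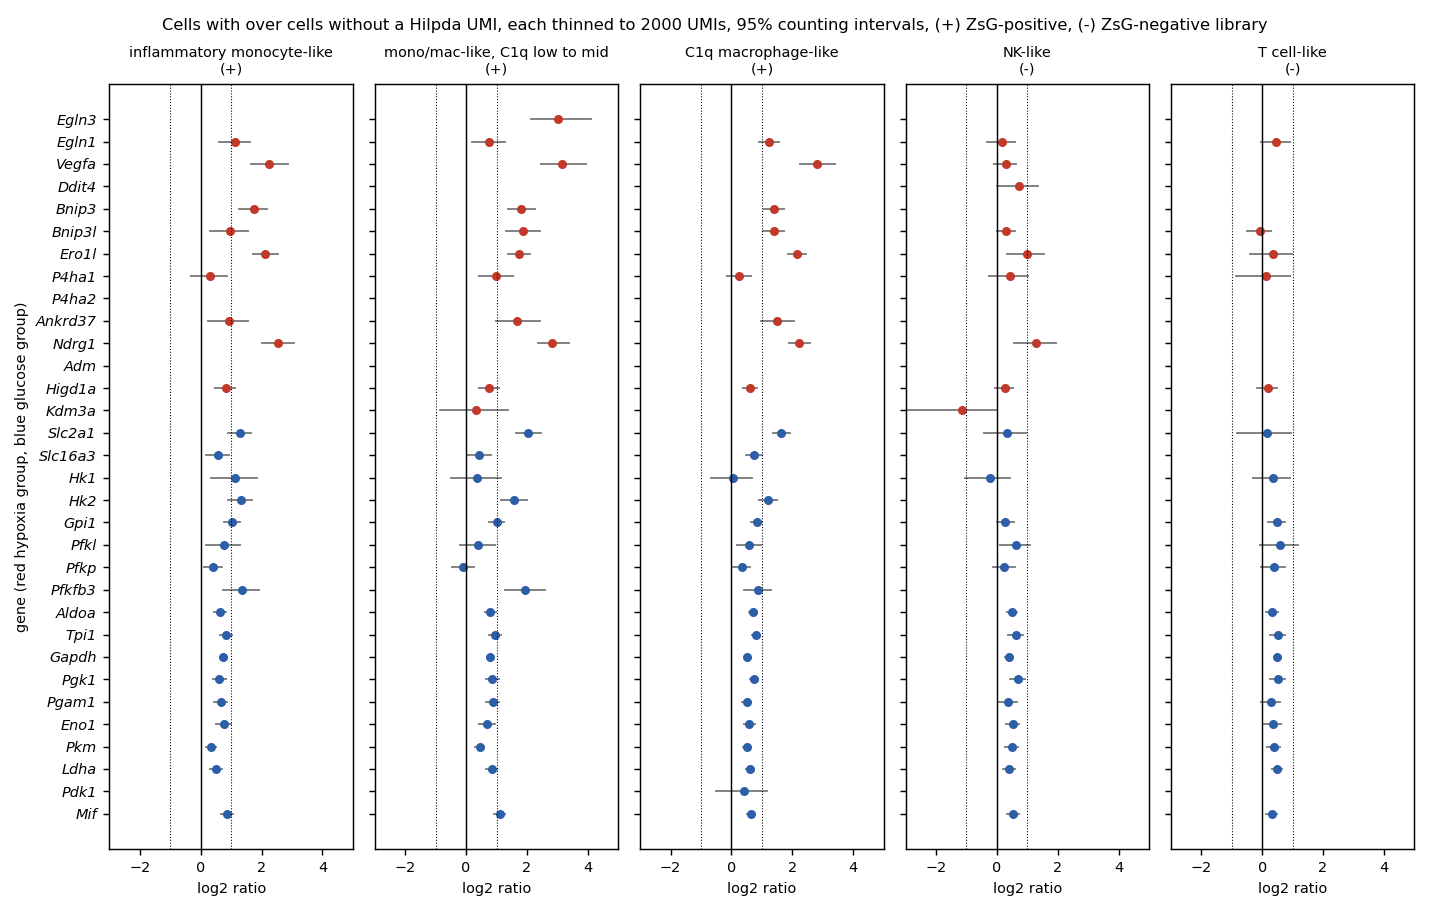
Log2 ratio of cells with over cells without a Hilpda UMI (x axis) for each other member that entered (y axis, hypoxia genes red, glucose genes blue), in 5 classes of the CD45 sort after thinning to 2000 UMIs, with 95% counting intervals and dotted lines at 2-fold. In the 3 myeloid panels Vegfa, Ndrg1 and Ero1l lie past 2-fold (2.81, 2.23 and 2.15 in C1q macrophage-like cells), and in the lymphocyte panels most genes lie between 0 and 1.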

How the data were processed

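UMI counts per gene and cell were used as deposited by the authors, who mapped the reads with Cell Ranger against mm10 and combined the 2 libraries of each sort (6.1.2 in the submitters' processing notes and the header of the T cell sort, 7.0.0 in the header of the CD45 sort). No source used here states whether the depth of the libraries was evened. Cells were kept with 1000 to 6000 genes and under 10% mitochondrial UMIs (CD45 sort), or 50 to 6000 genes and under 15% (T cell sort, where T cells also needed 0.055% of UMIs from CD3 genes, a limit not put on the other classes). Only genes seen in at least 3 cells counted toward these gene limits. Sums, totals and ratios used all genes. The totals were 47537541 and 56510578 UMIs in the ZsG-negative and ZsG-positive CD45 libraries and 10030971 and 22100220 in the T cell libraries.

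Classes were set by minimum UMIs of marker genes, with limits chosen after the marker distributions were seen, and no doublet caller was run. In the CD45 sort, 149 of 1695 C1q macrophage-like cells and 327 of 2229 ZsG-negative NK-like cells lay under 1.5 times their limit. UMIs were summed per class and library and divided by the total (CPM). Ratios had 0.5 UMI added, with exact conditional intervals, levels had exact Poisson and shares exact Clopper-Pearson intervals, all at 95% and for counting error only. A gene entered a comparison with at least 10 expected UMIs in the shallower side. Intervals were computed with scipy 1.17.1, sums with numpy 2.4.6 and pandas 2.3.3 under Python 3.11.15, and plots with matplotlib 3.10.9, and the ratio step was tested on simulated data.

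The members and gene lists were chosen with earlier results of these data known. Every member was described by its level, with at most 6 genes of the pathway lists named per comparison by size. Hif1a, Arnt, Eno3 and Epas1 were added for their role or after their values were seen. The 10 genes most like the hypoxia genes were named by rank, among genes with at least 10 CPM in a class. The 10 with the largest ratio in Hilpda-positive macrophages were named by rank among genes with at least 50 UMIs in each side. Alternatives varied the cell filter, marker limits, scaling, depth, UMI minimum, fold and added UMI. The monocyte gate without Plac8, the removal of cells with a melanocyte UMI, the NK-like splits and 6 further comparisons were added after the data were seen.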

Additional observations from a re-analysis of the deposited data

Results flagged for a closer look

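Each difference below had opposite directions in the CD45 sort and the T cell sort, with both counting intervals clear of 0. None of the differences between sorts was tested, each library stands alone, and the direction in the T cell sort rests on the assignment of its barcode suffixes. The study states that the CD45 gate took bright cells and that T cells were then sorted separately. ZsG-negative and ZsG-positive therefore need not mean the same in both sorts. By this assignment Foxp3-positive cells were 104 of 666 ZsG-positive and 31 of 630 ZsG-negative T cell-like cells. Plasmacytoid DC-like cells were 32.1% of ZsG-positive and 12.6% of ZsG-negative kept cells of that sort, but 0.461% and 4.36% in the CD45 sort. Values are log2 ratios of ZsG-positive over ZsG-negative cells.

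In inflammatory monocyte-like cells the sum of the hypoxia genes was at 1.1958 in the CD45 sort (850 and 137 cells) and -0.3198 in the T cell sort (70 and 31 cells). Vegfa was at 3.9526 and -1.4242, Higd1a at 0.9009 and -0.4391 and Pfkp at 1.2858 and -0.3847. The ZsG-negative monocytes of the CD45 sort had 489 CPM of hypoxia genes and those of the T cell sort 1431.

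In T cell-like cells Hilpda was at -0.2506 in the CD45 sort (100 against 119 CPM) and 0.3767 in the T cell sort (111 against 85.5), and Pdk1 at 0.5871 and -0.6332. Within the Foxp3-positive and the CD8 T cells of the T cell sort Hilpda differed little, and in CD4 T cells without Foxp3 it was lower in ZsG-positive cells. Foxp3-positive cells, which had the most Hilpda of these subsets, were a larger share of the ZsG-positive cells. The part of this make-up was not tested. In DC-like cells Ndrg1 was at 0.9696 and -0.9902, with 15 ZsG-negative cells in the T cell sort. In plasmacytoid DC-like cells Aldoa was at -0.7967, on 19 ZsG-positive cells, and 0.2933.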

How the results depend on the processing

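Of 322 alternative values of counts and shares, 260 stayed within 1.5 times the main count, or within the interval for shares, 62 moved and 0 reversed. Of 881 for single members, 818 stayed, 62 moved and 1 reversed. That 1 was Vegfa in inflammatory monocyte-like cells of the T cell sort, at a log2 ratio of 0.1204 after thinning to 2000 UMIs. The counts of monocytes (23 higher, 1 lower) did not move under any alternative run. The cause of each move was not tested. Shares of all genes are given for the main rule only. A count of members under an alternative therefore has no such share beside it and describes only how far the main count moved. No paired analysis was possible because each group is 1 library.

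In NK-like cells, ZsG-positive over ZsG-negative, 1 member was lower at 2 times the marker minimum, after thinning and at 1.5-fold. In T cell-like cells the 1 higher member became 2 without a cell filter, by the mean CPM per cell or with at least 5 expected UMIs, 0 without cells carrying UMIs of other lineages, after thinning or with at least 30 expected UMIs, 3 without cells with a melanocyte UMI and 7 at 1.5-fold. In DC-like cells 18 were higher at 1.5-fold.

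In CD8 T cells the 2 higher members became 1 without a cell filter, without cells with UMIs of other lineages, with TMM factors, with at least 30 expected UMIs or with 1 UMI added, 0 at mitochondrial UMIs under 5% or with totals without mitochondrial and ribosomal protein genes, 4 without the top 5% of cells and 7 at 1.5-fold, and 1 was lower at 2 times the marker minimum, after thinning and at 1.5-fold. In Foxp3-positive T cells the 3 higher became 1 at mitochondrial UMIs under 5% or at least 30 expected UMIs, 5 by the mean CPM per cell, 6 at 1.5-fold and 7 without cells with UMIs of other lineages. In CD4 T cells without Foxp3, 1 was higher at mitochondrial UMIs under 5% or at least 5 expected UMIs, and the 1 lower became 3 at 5 and 0 at 30 expected UMIs.

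For C1q macrophage-like over inflammatory monocyte-like cells the 1 higher member became 0 at mitochondrial UMIs under 5%, at 2 times the marker minimum, after thinning, without the top 5% of cells, with at least 30 expected UMIs and with the gate without Plac8, and 3 were lower at 1.5-fold. Over DC-like cells the 7 higher became 3 with totals without mitochondrial and ribosomal protein genes, 11 after thinning and 14 at 1.5-fold. For NK-like over T cell-like cells the 5 lower became 3 without cells with UMIs of other lineages, by the mean CPM per cell, after thinning and without cells with a melanocyte UMI, 8 without the top 5% of cells and 11 at 1.5-fold.

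The share of cells with a hypoxia UMI was 75.9% in ZsG-positive inflammatory monocyte-like cells at 2 times the marker minimum. Thinned to 1000 UMIs it was 53.9% in NK-like, 46.7% in T cell-like, 40.1% and 55.4% in ZsG-negative and ZsG-positive inflammatory monocyte-like, 63.6% in low to mid C1q and 53.5% in C1q macrophage-like cells. Thinned to 3000 it was 88.3%, 81.8%, 78.1%, 83.5%, 90.0% and 82.5%.

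With 1 library per group, differences between mice, tumors or sorts cannot be told apart from those between gates. Adm and P4ha2 were too rare for most comparisons, and ratios of small classes rest on few UMIs.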

Other observations

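Over the 12 whole classes per library of the CD45 sort with at least 50 cells, the genes outside the members whose log2(CPM + 1) most resembled the mean of the hypoxia genes were Arg1 (Pearson r 0.919), Plgrkt (0.906), Lhfpl2 (0.887), Tmem171 (0.886), Ak4 (0.886), Mgarp (0.884), Nos2 (0.884), Cox6b1 (0.884), Asna1 (0.879) and Zfand2a (0.879), of 9606 genes searched. The 12 groups come from 2 libraries that differ in depth, so these are descriptions. Among the glucose genes r ran from 0.891 (Pgam1) to 0.339 (Hk2).

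For C1q macrophage-like cells with a Hilpda UMI over those without, genes outside the members were ranked among the 1670 with at least 50 UMIs in each side. The largest ratios were those of the elastase Mmp12 (log2 ratio 2.83), the activin subunit Inhba (2.80), Mxi1 (2.39), Nos2 (2.34) and the interleukin-7 receptor Il7r (2.29). Thbs1 (2.07), Gpnmb (1.80), the arginase Arg1 (702 against 212 CPM, 1.73), the heat shock gene Hspa1b (1.70) and Bhlhe40 (1.57) followed.

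Within ZsG-negative NK-like cells, Vegfa differed little by subset marker. It was at 112 CPM in cells with a UMI of the receptor Klra8 and 103 in those without (0.12, -0.03 to 0.27), at 106 and 111 by Eomes, at 106 and 110 by Xcl1 and at 99.6 and 113 by the granzyme Gzmc. Hilpda was at 66.4 against 111 CPM by Klra8 (-0.74, -0.91 to -0.57) and 110 against 72.2 by Gzmc (0.60, 0.44 to 0.77), and Pgk1 at 378 against 178 by Gzmc (1.08). Cells with Gzmc had a median of 7188.5 UMIs and those without 4271.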
